A study of Mus musculus with 6 samples.

Results

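The nuclear factor I (NFI) family has 4 genes in the mouse, *Nfia*, *Nfib*, *Nfic* and *Nfix*, and was followed here in fetal lungs that lack insulin-like growth factor 1 (IGF1). Every probe set that the platform annotation gives to exactly 1 of these 4 symbols was taken, which made 16 probe sets of 22626 mouse probe sets on the array, or 4 genes of the 12393 that could be named (3 for *Nfia*, 4 for *Nfib*, 4 for *Nfic* and 5 for *Nfix*). The study hybridised lung RNA of *Igf1-/-* embryos, homozygous for a null *Igf1* allele, and of wild-type *Igf1+/+* embryos to mouse 3-prime expression arrays (MOE430A 2.0), with 3 arrays per genotype. All embryos were taken at embryonic day 18.5 (E18.5) from matings of heterozygotes that had been backcrossed to C57BL/6J, and the methods describe delivery by C-section and assisted breathing before dissection. The study's discussion speaks of normal breathing in the wild-type embryos, so any difference in breathing before dissection cannot be told apart from the genotype. The labels speak of lungs that were pooled for RNA, and also of 3 biological replicates. The study describes RNA from 3 mice of each genotype that was reverse-transcribed separately. Whether an array holds the RNA of 1 embryo or of several was not settled here, so the spread between arrays may be technical in part. Lung tissue was used whole, and a lower value can therefore come from fewer cells of a type or from less RNA per cell, which cannot be told apart. The family was picked with the results of this same comparison known, so that the genotype values of its members are given as a description. The fit over all probe sets includes them, and its call at a member is given beside the share over all probe sets and is no test of the family.

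NFI proteins are transcription factors that bind DNA as dimers through a conserved amino-terminal domain, at a palindrome made of 2 copies of TTGGC facing each other. Their carboxy-terminal parts activate or repress transcription and differ between genes and between splice forms. In mice, loss of *Nfib* leaves the lungs immature at birth, loss of *Nfia* or *Nfib* disturbs the midline and glia of the brain, loss of *Nfic* stops the growth of tooth roots, and *Nfix* acts in fetal muscle and in the brain. RefSeq places *Nfia* and *Nfib* on chromosome 4, *Nfix* on chromosome 8 and *Nfic* on chromosome 10 (GRCm38.p6) and lists 3 curated transcripts for *Nfia*, 5 for *Nfib*, 2 for *Nfic* and 16 for *Nfix*.

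To show what the proteins recognise, the full palindrome, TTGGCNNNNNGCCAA, was searched on both strands of 32851 RefSeq promoters (250 bases before and 50 after each start) and was found in 12 of them, or 0.037%. Of the genes behind these promoters, 5 were measured on the array. Their sites (GRCm38.p6) are printed 5′ to 3′ on the strand of the gene, with both TTGGC arms of the palindrome in capitals.
1810065E05Rik, chr11:58421012-58421040, plus strand: tgcacttTTGGCtttatGCCAAgatactc
Galt, chr4:41755474-41755502, plus strand: tcacgtgTTGGCgactaGCCAAtcatcca
Gstm7, chr3:107931853-107931881, minus strand: ttcgctcTTGGCactcaGCCAAgccacca
Hrh1, chr6:114397775-114397803, plus strand: tccatccTTGGCttcttGCCAAgctcagg
Oasl1, chr5:114923124-114923152, plus strand: acaaaagTTGGCcccatGCCAAccctgtt
The spacer between the arms differs in all 5, and a match to these letters is a description of the sequence and not evidence that a protein is bound there.

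The values are log2 expression values from RMA, so that a difference of 1 is a 2-fold difference. The 6 arrays had medians between 6.85 and 6.89, and the lowest correlation of a pair of them over all probe sets was 0.992. The label of lung was borne out by the surfactant protein gene *Sftpc*, with values between 14.4 and 14.5 in every array. *Igf1* itself, at its probe set of highest mean, read 8.87, 8.99 and 9.38 in the *Igf1-/-* lungs, against 9.28, 9.85 and 9.65 in the *Igf1+/+* lungs, which overlap. At 1419519_at the *Igf1* values were 6.15, 6.33 and 6.46 in the *Igf1-/-* lungs, against 6.60, 7.12 and 6.97 in the *Igf1+/+* lungs, with no overlap. The sources used here do not say how either probe set lies relative to the null mutation. *Igf1-/-* replicate 3 stands apart in heart muscle genes, whose 6 markers averaged 7.90, 7.94 and 9.30 in the *Igf1-/-* lungs, against 7.92, 8.02 and 7.82 in the *Igf1+/+* lungs. *Nppa*, the natriuretic peptide gene of the atrium, read 4.32, 4.42 and 7.29 in the *Igf1-/-* lungs, against 4.44, 4.21 and 4.42 in the *Igf1+/+* lungs. Differences without *Igf1-/-* replicate 3 are therefore given for members where they moved by more than 0.05.

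*Nfib* was the member with a clear difference between the genotypes, at 1 of its 4 probe sets. Probe set 1438244_at read 10.71, 10.62 and 10.69 in the *Igf1-/-* lungs, against 10.24, 10.30 and 10.08 in the *Igf1+/+* lungs. All 3 *Igf1-/-* arrays lie above all 3 *Igf1+/+* arrays, and the gap between the groups is wider than the spread within either of them. The means were 10.67 ± 0.05 in the *Igf1-/-* lungs and 10.21 ± 0.12 in the *Igf1+/+* lungs (SD, n = 3 each), a log2 fold change (*Igf1-/-* minus *Igf1+/+*) of 0.46 (SE 0.08) or 1.38-fold. The difference was 0.46 without *Igf1-/-* replicate 3 and between 0.40 and 0.51 with any 1 of the 6 arrays left out. In size it exceeds the differences of 98.2% of all probe sets.

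The other *Nfib* probe sets did not show this difference. Probe set 1427680_a_at, whose suffix in the maker's scheme marks probes shared by alternative transcripts, read 10.03, 10.08 and 10.25 in the *Igf1-/-* lungs, against 10.14, 10.10 and 9.97 in the *Igf1+/+* lungs, a log2 fold change of 0.05 (SE 0.09) that was -0.02 without *Igf1-/-* replicate 3. Probe set 1448288_at read 8.96, 9.09 and 9.24 in the *Igf1-/-* lungs, against 9.16, 9.27 and 8.94 in the *Igf1+/+* lungs, a log2 fold change of -0.03 (SE 0.11) that was -0.10 without *Igf1-/-* replicate 3. In both of these the groups lie fully across each other. Probe set 1416293_at, drawn from the same GenBank record as 1448288_at, read 6.36, 6.65 and 6.33 in the *Igf1-/-* lungs, against 5.87, 6.24 and 6.61 in the *Igf1+/+* lungs, a log2 fold change of 0.20 (SE 0.17) that was 0.26 without *Igf1-/-* replicate 3. Its wild-type values alone span more than its difference between genotypes, and its range with 1 array left out was wide, at 0.02 to 0.39.

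A neighbouring identifier, 1438245_at, has no gene in the annotation and is no member by the rule, although a supplementary table of the study lists it as *Nfib*. It read 10.97, 11.08 and 11.02 in the *Igf1-/-* lungs, against 10.52, 10.62 and 10.50 in the *Igf1+/+* lungs. These groups do not overlap either, and the log2 fold change of 0.48 (SE 0.07, 1.39-fold) stayed between 0.45 and 0.51 with any 1 array left out. Over the 6 arrays it correlated with 1438244_at at Pearson r = 0.95, and at r = 0.32 once the mean of each genotype was taken away. The 6 points share their arrays and the genotype difference, so the correlation is only a description. The probe set was chosen for its assignment in the study and after its values were seen.

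**Figure D1:**
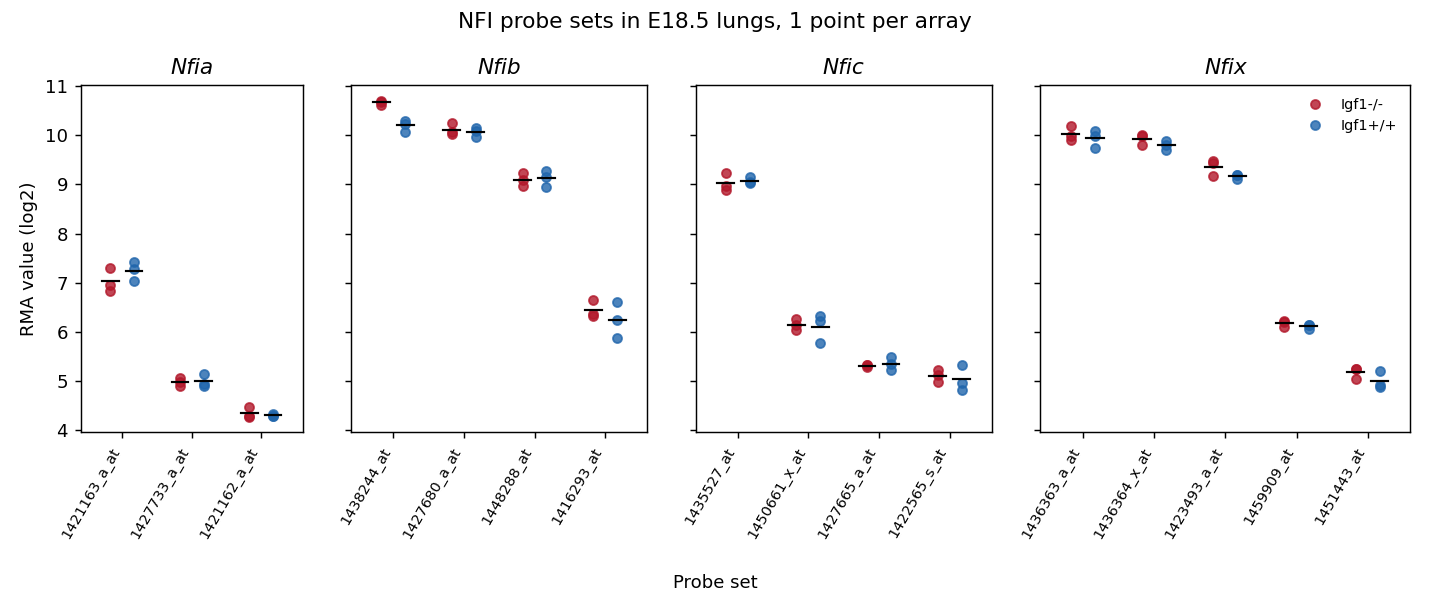
RMA expression values (log2, vertical axis) of the 16 NFI probe sets (horizontal axis), with 1 point per array, the *Igf1-/-* lungs in red left of the *Igf1+/+* lungs in blue, and a black bar at each mean of 3 arrays. Only at *Nfib* 1438244_at are the red points (10.62 to 10.71) all above the blue points (10.08 to 10.30), and all 5 *Nfix* probe sets have a higher mean in red with overlapping points.

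*Nfix*, the family member known from fetal muscle, had a higher mean over the 3 *Igf1-/-* arrays than over the 3 *Igf1+/+* arrays at all 5 of its probe sets, and the groups overlapped at every one of them. Probe set 1436363_a_at read 9.99, 9.91 and 10.20 in the *Igf1-/-* lungs, against 10.09, 9.99 and 9.74 in the *Igf1+/+* lungs, a log2 fold change of 0.09 (SE 0.11). This was 0.01 without *Igf1-/-* replicate 3 and -0.0069 without *Igf1+/+* replicate 3, so that its sign turned when that wild-type array was left out. Probe set 1436364_x_at, from the same GenBank record, read 9.81, 9.99 and 10.01 in the *Igf1-/-* lungs, against 9.88, 9.80 and 9.71 in the *Igf1+/+* lungs, a log2 fold change of 0.13 (SE 0.09). Probe set 1423493_a_at read 9.17, 9.48 and 9.45 in the *Igf1-/-* lungs, against 9.19, 9.19 and 9.11 in the *Igf1+/+* lungs, with a log2 fold change of 0.20 (SE 0.10). There *Igf1-/-* replicates 2 and 3 lie above all *Igf1+/+* arrays while *Igf1-/-* replicate 1 lies among them. Probe set 1451443_at read 5.04, 5.24 and 5.25 in the *Igf1-/-* lungs, against 5.20, 4.86 and 4.91 in the *Igf1+/+* lungs, a log2 fold change of 0.19 (SE 0.11). Probe set 1459909_at read 6.10, 6.20 and 6.21 in the *Igf1-/-* lungs, against 6.13, 6.06 and 6.13 in the *Igf1+/+* lungs, a log2 fold change of 0.06 (SE 0.07). The direction of the 5 probe sets is not that of 5 independent measurements, since they read the same RNA samples and, for a pair of them, the same record.

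*Nfic*, the tooth root factor, had differences of both signs, none larger than its standard error. Probe set 1435527_at read 8.90, 8.96 and 9.24 in the *Igf1-/-* lungs, against 9.14, 9.04 and 9.05 in the *Igf1+/+* lungs, a log2 fold change of -0.04 (SE 0.10) that was -0.15 without *Igf1-/-* replicate 3. Without that array the remaining *Igf1-/-* values, 8.90 and 8.96, both lie below the 3 wild-type values. At 1450661_x_at and 1422565_s_at, which come from a shared record and whose suffixes mark probes that can match other transcripts, the log2 fold changes were 0.04 (SE 0.14) and 0.07 (SE 0.13). At 1427665_a_at it was -0.05 (SE 0.08), with 5.32, 5.31 and 5.27 in the *Igf1-/-* lungs, against 5.22, 5.48 and 5.35 in the *Igf1+/+* lungs. The means of 1450661_x_at (6.12), 1427665_a_at (5.33) and 1422565_s_at (5.06) were low, so a change there could be missed.

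*Nfia*, a factor of gliogenesis, had its lowest ratio at 1421163_a_at, which read 6.96, 6.83 and 7.30 in the *Igf1-/-* lungs, against 7.27, 7.41 and 7.03 in the *Igf1+/+* lungs. The log2 fold change was -0.21 (SE 0.14) and the groups overlap because *Igf1-/-* replicate 3 lies above *Igf1+/+* replicates 1 and 3. Without *Igf1-/-* replicate 3 the difference was -0.34, and over all 6 arrays left out in turn it ran between -0.34 and -0.11. Probe set 1427733_a_at had a log2 fold change of -0.02 (SE 0.09) and 1421162_a_at of 0.04 (SE 0.08), with values between 4.27 and 5.13 in all arrays at these probe sets. Probe set 1421162_a_at shares its GenBank record with 1421163_a_at and does not share its direction.

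**Figure D2:**
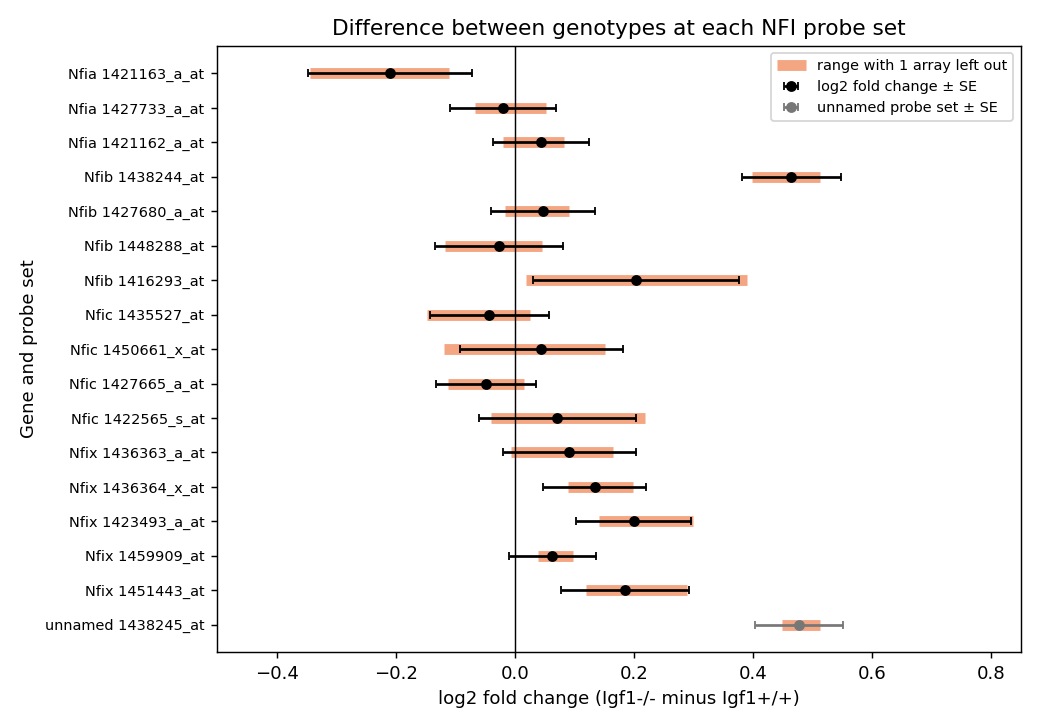
Log2 fold change (*Igf1-/-* minus *Igf1+/+*, horizontal axis) of each NFI probe set and of the unnamed 1438245_at (vertical axis), with the moderated standard error as a black or grey bar and the range obtained with 1 array left out in orange. *Nfib* 1438244_at at 0.46 and the unnamed probe set at 0.48 lie apart from the rest, whose values run from -0.21 to 0.20.

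Over the family, 11 of 16 probe sets had a higher mean in the *Igf1-/-* lungs and 5 a lower mean, with a median log2 fold change of 0.06. Over all 22626 probe sets 13162 were higher and 9464 lower, with a median of 0.03. The groups did not overlap at 1 of the 16, beside 18% of all probe sets, and the same 1 lay past an adjusted p of 0.10 in limma, beside 0.557% of all probe sets in either direction and 0.164% in the direction higher in *Igf1-/-*. Because the family was chosen with this contrast known, nothing follows from these shares. The count of 1 became 0 with the replicate number as a block, and in 5 of the 6 fits that left out 1 array. Of the 16 probe sets 8 had a mean above the median level of all probe sets, and a change at the dimmer ones could be missed.

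The members also differed in how far arrays of the same genotype lay from each other. *Igf1-/-* replicate 3 had the highest value of its genotype at 8 of the 16 probe sets, *Igf1-/-* replicate 2 at 5 and *Igf1-/-* replicate 1 at 3. Among the wild-type lungs the corresponding counts were 7 for *Igf1+/+* replicate 1, 5 for replicate 2 and 4 for replicate 3. Over all probe sets *Igf1-/-* replicates 1, 2 and 3 were the highest of their genotype at 29.8%, 37.4% and 32.7%, and *Igf1+/+* replicates 1, 2 and 3 at 30.1%, 27.5% and 42.1%. *Igf1-/-* replicate 3, with its high heart muscle markers, was also the lowest of its genotype at 3 NFI probe sets, and the part of those markers in its NFI values was not tested.

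Within *Nfib* the probe sets followed different courses over the arrays. After the mean of each genotype was taken away, 1427680_a_at and 1448288_at correlated at r = 0.88 over the 6 arrays, while 1416293_at ran opposite to the other 3 (r = -0.75, -0.67 and -0.49). For the 5 *Nfix* probe sets all such correlations were positive, from 0.10 to 0.88. *Nfib* 1427680_a_at and *Nfix* 1436363_a_at, of different genes, correlated at 0.92. These are descriptions over 6 arrays that share their normalization.

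**Figure D3:**
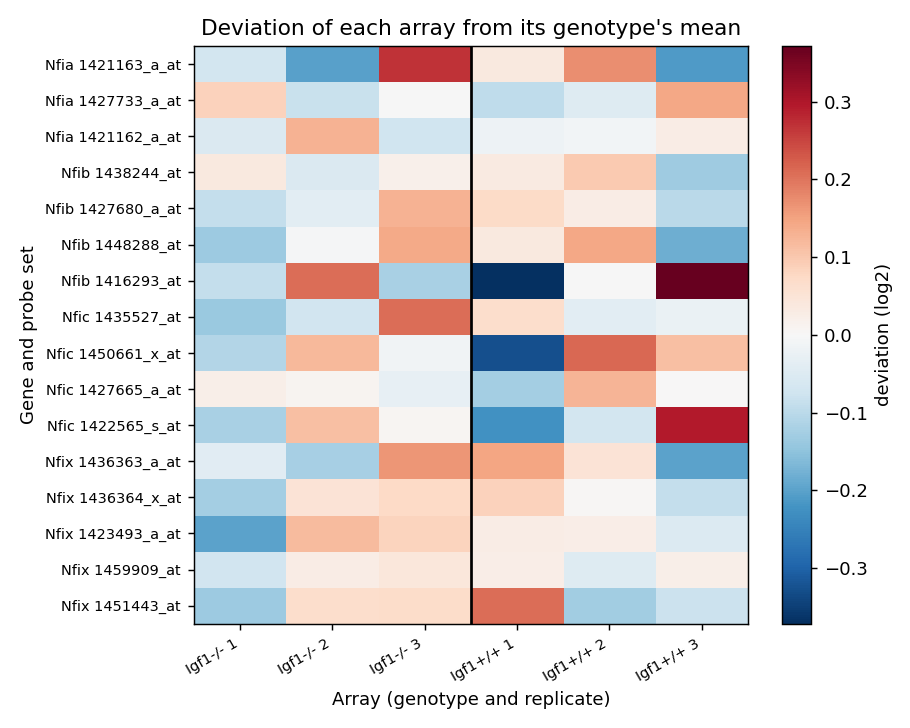
Deviation of each array (columns, *Igf1-/-* left of *Igf1+/+*) from the mean of its genotype at each NFI probe set (rows), in log2 units, red above and blue below the mean. *Nfib* 1416293_at has the strongest colours, from its *Igf1+/+* values of 5.87 and 6.61, and *Igf1-/-* replicate 3 is red at *Nfia* 1421163_a_at, where it read 7.30.

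The genes whose values over the 6 arrays were most like those of each NFI gene were picked by Pearson correlation, at the probe set of highest mean, among 12393 genes. For *Nfib* they were *Dnajb13*, a radial spoke protein of motile cilia (r = 0.994), *Fyb*, an adaptor of blood cells (r = 0.988), and *Tppp3*, a tubulin-binding protein (r = 0.987). *Tppp3* read 10.21, 10.14 and 10.30 in the *Igf1-/-* lungs, against 9.82, 9.85 and 9.56 in the *Igf1+/+* lungs, with no overlap, and did not pass the threshold of an adjusted p under 0.10 (limma, adjusted p = 0.107). For *Nfia* they were *Ddx52*, *Phip* and *Gemin2*, with r between 0.986 and 0.987. For *Nfic* they were the chemokine gene *Ccl11*, the potassium channel gene *Kcnh3* and the Wnt inhibitor gene *Sfrp2*, with r between 0.974 and 0.988. For *Nfix* they were the splicing factor gene *Syf2*, the cilium transport gene *Ift81* and the Mediator subunit gene *Med28*, with r between 0.976 and 0.988. All values of r hold the genotype difference and the arrays in common, and are the highest of many.

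Genes of the lung epithelium had a call at 1 gene. The study's antibody staining placed nuclear Nfib protein mainly in some mesenchymal and smooth muscle cells, whose markers are given further on. Its Western blots of whole lung had significantly more Nfib in the *Igf1-/-* lungs, a measure of protein and not of RNA. Of 14 regulators and products of lung epithelium 8 were higher and 6 lower, 0 rose and 1 fell, with a median log2 fold change of 0.05, and 8 had an unadjusted p under 0.05. Over the 12393 genes, each at its probe set of highest mean, 18 rose and 56 fell, or 0.145% and 0.452% (0.597% together), with a median of 0.03, and 1574 had an unadjusted p under 0.05. The gene that fell was *Aqp5*, a water channel of alveolar type I cells, which read 9.01, 8.99 and 8.57 in the *Igf1-/-* lungs, against 9.90, 9.85 and 9.76 in the *Igf1+/+* lungs. It fell by 0.98 on the log2 scale (SE 0.12, limma adjusted p = 0.0173). *Sftpc*, the surfactant protein of type II cells, had a log2 fold change of 0.05 (SE 0.07) and *Sftpb*, a further surfactant protein, of 0.30 (SE 0.12, limma adjusted p = 0.363). Of the other surfactant protein genes in the list, *Sftpa1* had 0.25 (SE 0.10) with overlap. *Sftpd* was lower, at -0.42 (SE 0.14, limma adjusted p = 0.29), with no overlap.

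Genes tied to NFI factors in other tissues of the mouse gave no calls. Over the 12393 genes 0.597% were called, and 1574 had an unadjusted p under 0.05. Of 11 measured genes linked to NFI in brain 7 were higher and 4 lower, with a median log2 fold change of 0.03, and none rose or fell in limma, while 1 had an unadjusted p under 0.05. The gene with an unadjusted p under 0.05 was *Apcdd1*, which was lower, at -0.40 (SE 0.09, limma adjusted p = 0.135), with no overlap. In that list the Notch target gene *Hes1* had a log2 fold change of 0.03 (SE 0.14) and *Ezh2*, a histone methyltransferase gene, of 0.08 (SE 0.10). Of 8 genes linked to NFI in muscle, fat and tooth 6 were higher and 2 lower, with a median of 0.21, and 0 passed in limma while 4 had an unadjusted p under 0.05. At 2 muscle genes *Igf1-/-* replicate 3 lay far above the rest. *Ckm* read 7.45, 7.45 and 8.32 in the *Igf1-/-* lungs, against 7.51, 7.47 and 7.56 in the *Igf1+/+* lungs. *Eno3* read 7.23, 7.37 and 7.81, against 7.19, 7.30 and 7.25. The median was not taken without that array. *Klf4*, a Krüppel-like transcription factor gene, read 9.56, 9.38 and 9.28 in the *Igf1-/-* lungs, against 10.32, 10.43 and 9.81 in the *Igf1+/+* lungs. Its groups do not overlap, its log2 fold change was -0.78 (SE 0.16), and it did not reach the threshold (limma adjusted p = 0.106), though it did without *Igf1+/+* replicate 3 (0.0115), with the replicate block (0.0592), with dim probe sets left out (0.0889), with a variance trend (0.073) and with array weights (0.0289), and its adjusted p over all alternatives ran between 0.0115 and 0.336. *Myh7*, the slow myosin gene, had a log2 fold change of 0.21 (SE 0.10). Besides *Klf4*, the genes with an unadjusted p under 0.05 were *Nfatc4* (0.21, SE 0.08), *Sp7* (0.21, SE 0.08) and *Pparg* (-0.28, SE 0.11). The groups did not overlap at any of these 4, beside 2327 of the 12393 genes. *Igf1-/-* replicate 3 was not the highest of its genotype at *Sp7* or *Myh7*, whose changes lie at the list median.

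Signalling genes and partner factors of the family were equally without calls. Over the 12393 genes 0.597% were called, and 1574 had an unadjusted p under 0.05. Of 15 genes of TGF-beta, hedgehog and PDGF signalling 7 were higher and 8 lower, with a median log2 fold change of -0.05, and 0 passed in limma while 3 had an unadjusted p under 0.05. *Tgfbr2*, the type II receptor gene for TGF-beta, had a log2 fold change of -0.05 (SE 0.08) and *Ptch1*, the hedgehog receptor gene, of -0.10 (SE 0.14). The 3 genes with an unadjusted p under 0.05 changed in both directions. They were *Gli1* (0.66, SE 0.16), *Pdgfa* (-0.32, SE 0.08) and *Pdgfra* (-0.28, SE 0.11). The groups did not overlap at any of them, beside 2327 of the 12393 genes. Of the 8 SMAD genes, whose products carry TGF-beta and BMP signals to the nucleus, 4 were higher and 4 lower, with a median of 0.02 and 0 below an unadjusted p of 0.05. *Smad4*, the shared SMAD, had -0.01 (SE 0.08), turning to 0.01 when the 6 arrays were quantile normalised, and *Smad1* had -0.20 (SE 0.14). Of 7 measured genes of other CCAAT-binding factors 5 were higher and 2 lower, with a median of 0.07, and 0 passed in limma while 1 had an unadjusted p under 0.05. In this list *Cebpd* had a log2 fold change of -0.19 (SE 0.13) and *Cebpb* of -0.17 (SE 0.08), and these are the 2 lower genes. *Cebpa*, the gene with an unadjusted p under 0.05, was higher, at 0.33 (SE 0.10, limma adjusted p = 0.232), with no overlap.

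**Figure D4:**
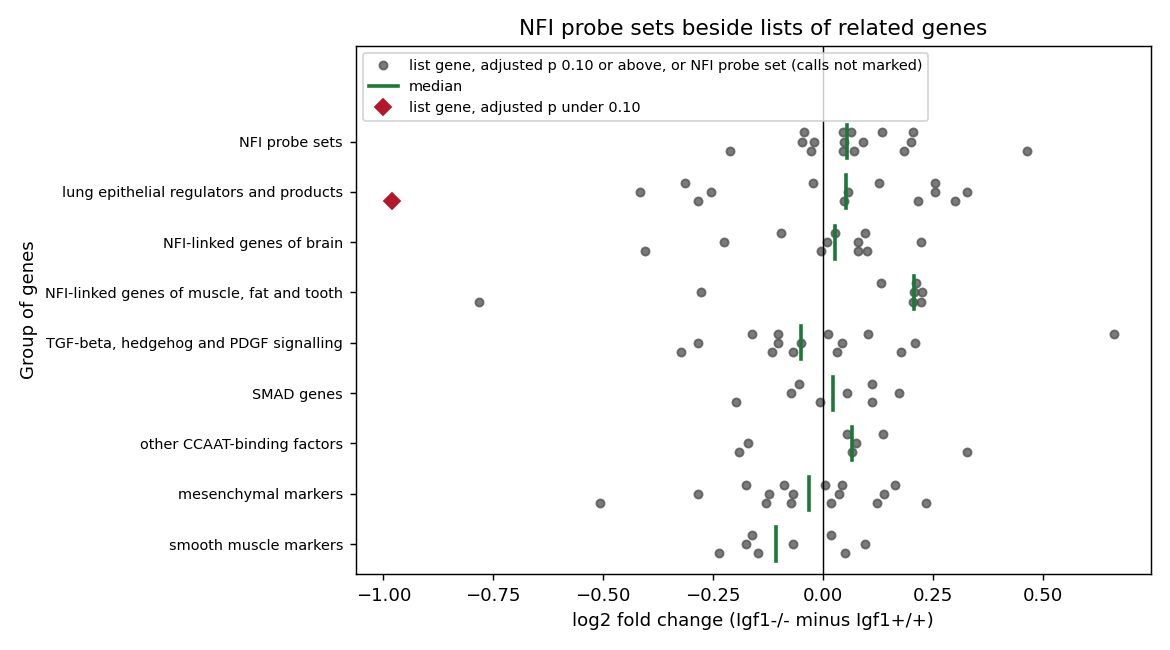
Log2 fold change (*Igf1-/-* minus *Igf1+/+*, horizontal axis) of the 16 NFI probe sets in the top row and of the measured genes of 8 lists in the rows under it, 1 point per probe set or gene, with a green bar at each median. Calls are not marked in the NFI row, where *Nfib* 1438244_at lies at 0.46, and the red diamond, *Aqp5* (-0.98), is the list gene past an adjusted p of 0.10 in limma, while the medians of the rows lie between -0.11 and 0.21.

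Mesenchymal and smooth muscle markers gave no calls between the genotypes. Over the 12393 genes 0.597% were called, and 1574 had an unadjusted p under 0.05. Of 16 mesenchymal markers 8 were higher and 8 lower, with none past the threshold in limma and 1 at an unadjusted p under 0.05, and the mean of the list lay between 9.52 and 9.79 in the *Igf1-/-* lungs and between 9.64 and 9.71 in the *Igf1+/+* lungs. *Mfap4*, a microfibril protein gene, had a log2 fold change of -0.18 (SE 0.09) and the collagen gene *Col3a1* of 0.04 (SE 0.07). Of 8 smooth muscle markers 3 were higher and 5 lower, with none past the threshold in limma and 1 at an unadjusted p under 0.05, and a list mean between 8.45 and 8.71 in the *Igf1-/-* lungs and between 8.55 and 8.67 in the *Igf1+/+* lungs. *Acta2* had a log2 fold change of -0.16 (SE 0.11) and *Tagln* of -0.17 (SE 0.12), both genes of the contractile apparatus. Both list means overlap between the genotypes, and the part of these cells in the *Nfib* difference was not tested.

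Leukocyte markers lay higher in the *Igf1-/-* lungs at 7 of 8 genes, with 1 that rose and 6 at an unadjusted p under 0.05, and their mean was between 8.0 and 8.14 in the *Igf1-/-* lungs and between 7.68 and 7.86 in the *Igf1+/+* lungs. The gene that rose was *Rac2*, a GTPase of blood cells, by 0.49 on the log2 scale (SE 0.08, limma adjusted p = 0.0695), a call that was lost with 1 array left out in 5 of 6 cases and with the replicate block (adjusted p = 0.12). *Csf1r*, the receptor gene of macrophage growth factor, had a log2 fold change of 0.32 (SE 0.09) and *Tyrobp*, a signalling adaptor gene, of 0.36 (SE 0.11). Erythroid markers were measured at 4 of 6 genes, of which 2 were higher and 2 lower and the 2 lower genes fell, with a list mean between 6.76 and 6.87 in the *Igf1-/-* lungs and between 7.27 and 7.45 in the *Igf1+/+* lungs. *Slc4a1*, the red cell anion exchanger gene, fell by 1.64 (SE 0.09, limma adjusted p = 0.000147) and *Alas2*, the initial enzyme of haem synthesis in red cells, fell by 0.87 (SE 0.15, limma adjusted p = 0.0754), a call lost with 1 array left out in 4 of 6 cases (adjusted p up to 0.255). *Epb42*, a membrane protein gene of red cells, had a log2 fold change of 0.10 (SE 0.07) and *Klf1*, a transcription factor gene of red cells, of 0.14 (SE 0.10). Both list means separate the genotypes, as *Nfib* 1438244_at does, and their part in the *Nfib* difference was not tested. None of the other marker lists had a gene past the threshold in limma, with 4 higher and 5 lower among 9 epithelial genes, 2 higher and 8 lower among 10 endothelial genes and 6 higher among 6 heart muscle genes. At an unadjusted p under 0.05 there were 3 of the epithelial, 3 of the endothelial and 0 of the heart muscle genes. Beside all these lists, 7508 of the 12393 genes were higher and 4885 lower. Among the 12393 genes 18 rose, 56 fell and 1574 had an unadjusted p under 0.05.

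Among the genes whose promoters hold the palindromes printed above, none rose or fell (the lowest limma adjusted p was 0.657). The oligoadenylate synthetase-like gene *Oasl1* had a log2 fold change of 0.09 (SE 0.08), the glutathione transferase gene *Gstm7* of 0.07 (SE 0.08) and *Galt*, which encodes an enzyme of galactose metabolism, of 0.03 (SE 0.09). The histamine receptor gene *Hrh1* had -0.02 (SE 0.08) and 1810065E05Rik had 0.11 (SE 0.09). Only *Galt*, with a mean value of 8.48, lay above the array medians of 6.85 to 6.89. The means of *Hrh1* (4.10), 1810065E05Rik (4.20), *Gstm7* (5.52) and *Oasl1* (5.56) were low, so a change in these genes could be missed. A single arm, TTGGC, was also searched on both strands. Its reverse GCCAA can overlap the letters CCAAT, and it was in 15344 of the 32851 promoters, or 46.7%. Of 5439 measured genes with such a promoter 6 rose and 22 fell, beside 13 and 40 of all 9887 measured genes with a promoter in the table, and both groups of genes had a median log2 fold change of 0.03. The promoters that the table holds for *Nfia* (1) and *Nfic* (1) hold it 0 times and the 4 of *Nfix* hold it 4 times in all.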

How the data were processed

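Total RNA of 6 E18.5 lung samples, 3 *Igf1-/-* and 3 *Igf1+/+*, was hybridised to MOE430A 2.0 arrays. The authors deposited expression values on a log2 scale. They came from RMA, which corrects background, normalises quantiles and summarises each probe set, run over 12 arrays. The 6 cochlear arrays among them were not analysed here, and no version of RMA is stated in the sources used. Because quantile normalization forces similar distributions on all arrays, values are relative to the bulk of probe sets. Groups and replicate numbers came from the sample labels, and 0 columns were left unmapped. Array values carry no read depth, and with 3 arrays per genotype the smallest exact permutation p is 0.1, so precision is set by the small number of arrays.

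Of 22690 probe sets, 64 controls were left out. Of the remaining 22626, the annotation gave 20380 exactly 1 symbol, 691 several and 1555 none, and 20351 symbols were found in RefSeq (GRCm38.p6) through the Entrez identifier. Using R 4.3.3 and limma 3.58.1, a model with genotype as its only term was fitted to all probe sets, and p values were adjusted by the Benjamini-Hochberg method over all of them. A gene rose or fell at an adjusted p under 0.10. The SAM statistic of the methods was not used, since its FDR needs other splits of the arrays. The fit was tested on simulated data.

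The NFI genes, the lists and the alternatives were chosen with earlier results of these data known. All NFI probe sets were named, as were *Igf1*, up to 4 members of a list with the largest change past the threshold (the 2 with the highest mean where fewer than 2 passed), and the 3 genes most like each NFI gene. *Aqp5*, *Rac2*, *Nppa*, *Epb42*, *Klf1* and the unnamed probe set were named after their values were seen, and the genes with a full palindrome for their site. *Cebpa*, *Gli1*, *Pdgfa*, *Pdgfra*, *Sftpa1*, *Sftpd*, *Ckm*, *Eno3*, *Nfatc4*, *Sp7*, *Pparg* and *Apcdd1* were also named after their values were seen. Same-numbered arrays of both genotypes had deviations that correlated at -0.04, -0.23 and -0.14, so no positive shared deviation was seen. Such correlations cannot settle whether the numbers pair the samples, and the labels do not say. As alternatives, the fit was repeated with a block for replicate number, with the 6 arrays quantile normalised, with centring on the array median, dim probe sets left out, a variance trend with robust estimates, array weights, controls kept, other thresholds, the median probe set of a gene, and each array left out in turn.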

Additional observations from a re-analysis of the deposited data

How the results depend on the processing

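Of the 16 NFI probe sets, 7 kept the sign of their difference in every alternative that was run, *Nfib* 1438244_at among them, and 9 changed it in at least 1, all with differences under 0.10 in size. These were 2 of *Nfia*, 2 of *Nfib*, all 4 of *Nfic* and *Nfix* 1436363_a_at. The count of NFI probe sets past the threshold, 1 of 16, was 0 with the replicate number as a block and 0 to 1 with 1 array left out (1 without *Igf1+/+* replicate 3 only). The 126 calls over all probe sets became 204 with a variance trend and robust estimates, 628 with array weights, 54 at an adjusted p under 0.05 and 588 under 0.20, 138 with the replicate block, and 45 to 710 with 1 array left out (710 without *Igf1+/+* replicate 3). The 4 calls among 134 measured list genes became 10 with array weights, 2 at 0.05 and 9 at 0.20, were 4 with the replicate block but with *Klf4* gained (adjusted p = 0.0592) and *Rac2* lost (0.12), and became 2 to 12 with 1 array left out (12 without *Igf1+/+* replicate 3). The cause was not tested. With 1 array left out, differences near 0 changed sign and ran between -0.12 and 0.16 for *Hes1*, -0.00012 and 0.15 for *Ezh2*, -0.093 and 0.0044 for *Tgfbr2*, -0.21 and 0.083 for *Ptch1* and -0.042 and 0.033 for *Smad4*, which was also 0.0054 with quantile normalization and 0.0084 with array weights. *Hes1* turned without *Igf1-/-* replicate 1 or *Igf1+/+* replicate 1, *Ezh2* and *Tgfbr2* without *Igf1-/-* replicate 3, *Ptch1* without *Igf1-/-* replicate 2, and *Smad4* without *Igf1-/-* replicate 3 or *Igf1+/+* replicate 1. Quantile normalization placed the median of all probe sets at 0.01 and centring at 0.03. The small number of arrays limits what could be detected, and a value short of the threshold does not show that the genotypes were alike.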
